A study of Mus musculus with 4 samples.

Results

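The calcium/calmodulin-dependent protein kinase (CaM kinase) genes examined here were the 8 rows of the deposited fragment table named Camk2a, Camk2b, Camk2d, Camk2g, Camk4, Camk1, Camkk1 and Camkk2, out of 24984 genes in the table. All 8 were found by name. The set was chosen by the values of Camk2b, for its difference between the genotypes in these same libraries, so the values of that gene are given as a description and carry no test. The other 7 members came in by family name. In TTchem-seq, newly made RNA takes up 4-thiouridine (4sU) for a short time, is fragmented and is pulled out for sequencing, so the fragments over a gene, introns included, are meant to report how much of it was being transcribed. The study's methods describe this pull-down with depletion of ribosomal RNA, whereas the sample labels describe a poly(A) selection, and which of them made these libraries is not settled here. The cells were CD4+ CD8+ double positive (DP) thymocytes, from 2 libraries of wild-type (WT) mice with genotype Tox4;F/F and 2 libraries of conditional knockout (cKO) mice with genotype Tox4;F/F;Lck+. Both genotypes carried floxed Tox4 alleles, with loxP sites around exons 4 to 6, and the Cre transgene was carried by the cKO mice alone. Per the study's methods, Cre was driven by the proximal Lck promoter and acted from the DN3 stage on, and the mice were gender-matched littermates on a C57BL/6 background aged 6 to 8 weeks. The labels call the cells purified DP cells, and the methods describe purification from thymus with CD4 beads for other assays of the study. The cells of both genotypes were cultured for 0.5 h before 4sU was added. The sources used here do not say how many mice went into a library, and an effect of Cre cannot be told apart from that of Tox4 loss.

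The libraries held 38429786 to 48690591 fragments. Tox4 was at 74.0 and 70.3 CPM (fragments of the gene scaled to the total of the library in the usual way) in WT and at 59.3 and 57.2 CPM in cKO, or −0.31 on the log2 scale with a standard error of 0.0998 (DESeq2 adjusted p = 0.0453), measured over the whole gene and not over the deleted exons. It was lower in both cKO libraries, but the adjusted p was above 0.05 with edgeR, with limma voom and without any single library. DP markers summed to 5028–5583 CPM in WT and 5013–5369 CPM in cKO, and 2 of these 8 genes, Cd8a and Rag1, fell by DESeq2. Markers of mature single positive cells summed to 483–488 CPM in WT and 419–484 CPM in cKO, with Runx3 up and Ccr7 down by DESeq2. edgeR and limma voom called 0 genes of either list. Double negative markers were at 27.7–27.8 and 23.9–27.6 CPM, B cell markers at 12.7–13.8 and 12.2–14.3 CPM, and myeloid markers at 8.46–11.1 and 10.2–11.3 CPM in WT and cKO, respectively. Erythroid markers stayed at or below 0.478 CPM, and thymic epithelial markers stayed at or below 1.13 CPM with Psmb11 at 0. In bulk libraries a change in the share of a cell type cannot be told apart from a change in RNA per cell. The part of these marker differences in the results below was not tested. WT replicate 1 stood apart in Xist, with 172 CPM against 0 to 2.36 CPM in the other 3 libraries. Xist is transcribed from the inactive X chromosome of female cells. This difference is at odds with the gender-matched mice of the methods. The labels do not give the sex of the mice, and the sex behind each library was not tested. Calls of the genes named below that change without WT replicate 1 are given both ways.

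CaM kinases turn a rise in calcium into phosphorylation. Calcium loads calmodulin, and calcium-calmodulin opens the kinases. Separate genes encode the CaMKII subunits alpha (Camk2a), beta (Camk2b), gamma (Camk2g) and delta (Camk2d), which assemble into large holoenzymes and can keep themselves active by autophosphorylation. The alpha and beta subunits are best known from neurons, where they act in synaptic plasticity, and gamma and delta are made in many tissues. The CaMKI (Camk1) and CaMKIV (Camk4) kinases work differently, since they need phosphorylation by an upstream CaM kinase kinase, CaMKK1 (Camkk1) or CaMKK2 (Camkk2), for full activity. CaMKIV is abundant in T cells and phosphorylates CREB, and CaMKK2 also activates the AMP-activated kinase AMPK. In thymocytes calcium signals follow T cell receptor engagement during selection.

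The 250 bases just before the annotated start are printed for 3 genes: Camk2b, which differed most between the genotypes, Camkk2, which was called increased, and Camkk1, its paralog that was not called. They are RefSeq promoters of GRCm38.p6, given 5′ to 3′ on the strand of the gene and in lower case. Capitals mark matches, on either strand, to GGGCGG (a GC box), CCAAT (a binding motif of NF-Y), TATAAA (a core promoter motif), TGACG (found within the cAMP response element, the site that CREB binds) and CACGTG (an E box).
Camk2b, chr11:6065749-6065998, minus strand: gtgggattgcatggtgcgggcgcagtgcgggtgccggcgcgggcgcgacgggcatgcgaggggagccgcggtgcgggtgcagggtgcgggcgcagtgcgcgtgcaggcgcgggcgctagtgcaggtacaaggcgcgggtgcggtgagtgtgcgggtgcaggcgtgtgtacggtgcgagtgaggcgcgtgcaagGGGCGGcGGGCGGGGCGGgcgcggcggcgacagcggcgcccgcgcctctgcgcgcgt
Camkk2, chr5:122779411-122779660, minus strand: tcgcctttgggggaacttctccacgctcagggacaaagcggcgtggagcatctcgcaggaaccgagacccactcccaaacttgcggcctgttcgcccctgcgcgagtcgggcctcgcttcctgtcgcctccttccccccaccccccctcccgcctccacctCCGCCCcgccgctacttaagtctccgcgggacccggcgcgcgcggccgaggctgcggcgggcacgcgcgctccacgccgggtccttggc
Camkk1, chr11:73018738-73018987, plus strand: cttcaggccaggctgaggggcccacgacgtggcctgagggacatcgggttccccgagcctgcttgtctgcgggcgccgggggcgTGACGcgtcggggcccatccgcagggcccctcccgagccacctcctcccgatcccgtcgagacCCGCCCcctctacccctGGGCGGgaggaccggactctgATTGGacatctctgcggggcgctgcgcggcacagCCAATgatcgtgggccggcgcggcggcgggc
All 3 were rich in CpG. The Camk2b promoter held 44 CpG and 78.4% G+C, which put it at percentile 99.5 for CpG count among 32851 promoters of this length, whose median was 6 CpG and 52.4% G+C. Camkk2 held 32 CpG (percentile 95.4) and Camkk1 29 CpG (percentile 93.2). The Camk2b promoter had 3 GC box matches, the last pair overlapping, and no match to the other letters. Camkk2 had 1 GC box match, and Camkk1 had 2 GC box matches, 2 CCAAT matches and 1 TGACG match. Of all promoters, 32.7% held a GC box match, 33.8% a CCAAT match, 12.4% a TATAAA match, 17.8% a TGACG match and 6.02% a CACGTG match. Promoters were examined for 5 of the 8 members. Of these, Camk2d had 23 CpG with 3 GC box matches and Camk1 had 11 CpG with 1 TGACG match.

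Levels were compared between genes as CPM per kb of gene span. In WT, Camk4 was the highest at 6.65 ± 0.307 CPM per kb (mean ± SD, n = 2), which put it at percentile 90.0 of the 11625 expressed genes, meaning those averaging 1 CPM or more. Camk2g followed at 2.88 ± 0.0179, Camkk1 at 2.49 ± 0.110, Camkk2 at 1.58 ± 0.0901 and Camk2d at 0.794 ± 0.0420 CPM per kb. Below them stood the subunits best known from neurons, Camk2a at 0.113 ± 0.0434 and Camk2b at 0.0195 ± 0.00171 CPM per kb. Camk1 came last at 0.0012 CPM per kb. The order was the same in cKO, and in both genotypes the ranges of neighbours in the order did not overlap. The gap between Camk2a and Camk2b was 5.81-fold in WT and 1.49-fold in cKO, and Camkk1 was 1.57-fold above Camkk2 in WT. These orders are descriptions of 2 libraries each.

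**Figure D1:**
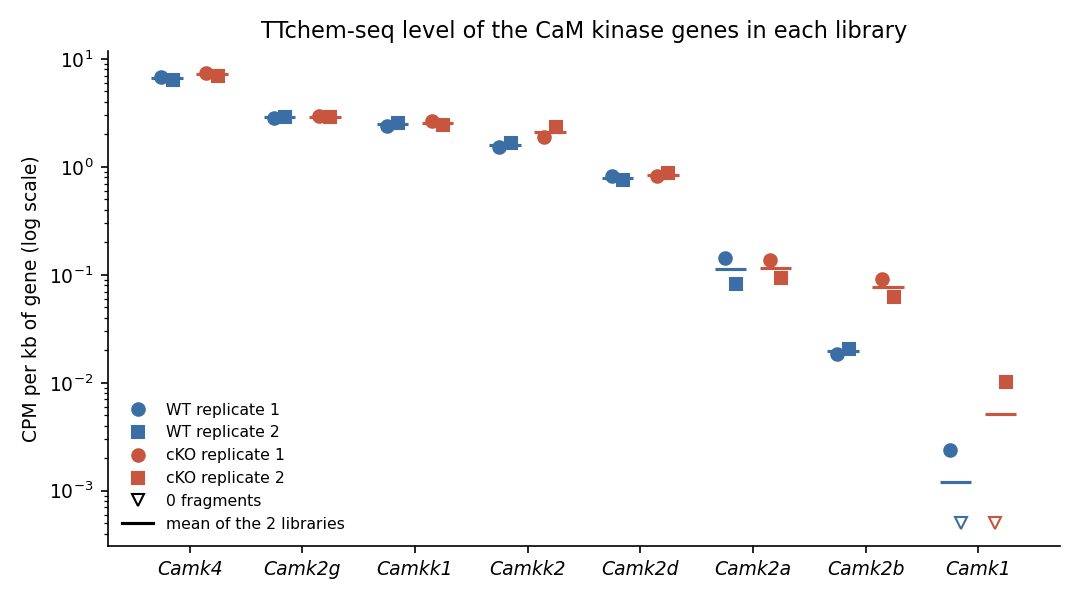
Level of each CaM kinase gene in each library, in CPM per kb of gene span on a log axis; blue is WT, red is cKO, circles are replicate 1, squares are replicate 2, lines are means of the 2 libraries, and open triangles at the bottom mark libraries with 0 fragments. Camk4 was highest in both genotypes, and the 2 cKO points of Camk2b lay well above its 2 WT points while still below the 2 cKO points of Camk2a.

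Camk2b lies on chr11:5969666-6065748 of GRCm38, minus strand, a span of 96083 bp with 3 curated transcripts of 20 to 21 exons. It had 75 and 97 fragments in WT, and 336.5 and 240 in cKO. In CPM these were 1.76 and 1.99 in WT and 8.74 and 6.04 in cKO. The exact binomial 95% intervals, which cover counting error only, were 1.38–2.21 and 1.62–2.43 CPM in WT and 7.83–9.73 and 5.30–6.85 CPM in cKO. The cKO values were the higher ones in either replicate, with cKO replicate 1 above cKO replicate 2. The means were 1.88 ± 0.165 CPM in WT and 7.39 ± 1.91 CPM in cKO, and the fitted log2 fold change was 1.97 (SE 0.32), a 3.92-fold difference. Of the 11625 expressed genes, 5 had a log2 fold change that high, Camk2b included. Since Camk2b was chosen for this difference, its rank restates the choice and is no separate evidence. The log2 fold change was 1.69 without cKO replicate 1 and 1.88 without WT replicate 1. Even so, Camk2b remained a low gene. By CPM per kb it stood at percentile 2.33 of those genes in WT and at percentile 6.90 in cKO.

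The other CaMKII genes were much nearer to equal between the genotypes. Camk2g, on chr14:20734873-20794088 and the highest CaMKII gene of these cells, was at 169 and 171 CPM in WT and 174 and 173 CPM in cKO. The cKO libraries were the higher ones, but the log2 fold change was 0.02 (95% interval −0.13 to 0.18, DESeq2 adjusted p = 0.948). Camk2d, on chr3:126596951-126846326, was at 205 and 191 CPM in WT and 205 and 217 CPM in cKO, and the libraries overlapped. Its log2 fold change was 0.09 (95% interval −0.07 to 0.25, DESeq2 adjusted p = 0.716). Camk2a, on chr18:60925632-60988152, was at 9.01 and 5.18 CPM in WT and 8.51 and 5.86 CPM in cKO. Its libraries differed more within a genotype than between genotypes, and the interval of the log2 fold change was correspondingly wide, −0.57 to 0.61 around 0.02 (DESeq2 adjusted p = 0.991). Mir6982 and Mir7220 lie within Camk2a and had 0 to 3 fragments in any library.

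As a share of the 4 CaMKII genes per kb, Camk2b made up 0.476% and 0.552% in WT and 2.28% and 1.59% in cKO. Camk2g held 74.4% and 76.9% in WT and 73.7% and 74.0% in cKO. Camk2d held 20.3% to 22.1% and Camk2a 2.20% to 3.74% over all 4 libraries. The summed CaMKII level was 3.85 and 3.76 CPM per kb in WT and 3.99 and 3.95 in cKO. The make-up of CaMKII transcription was thus led by the gamma and delta genes in every library, and the beta gene was the smallest part of it in each.

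Camkk2, on chr5:122731170-122779410, minus strand, was called increased. It was at 73.4 and 79.5 CPM in WT and at 92.2 and 112 CPM in cKO, so both cKO libraries were above both WT libraries, and cKO replicate 2 was the highest of all. The means were 76.4 ± 4.34 and 102 ± 14.3 CPM, a log2 fold change of 0.42 (SE 0.11), or 1.34-fold, with DESeq2 adjusted p = 0.00909. Single libraries and the choice of tool changed this call. Leaving out WT replicate 1 gave 0.35 on the log2 scale (DESeq2 adjusted p = 0.368), leaving out cKO replicate 2 gave 0.26 (DESeq2 adjusted p = 0.853), and edgeR and limma voom gave adjusted p of 0.166 and 0.169, whereas edgeR with no filter on low counts called the gene. Camkk1, on chr11:73018988-73042065, was at 55.7 and 59.3 CPM in WT and 61.2 and 56.0 CPM in cKO, with the libraries of the genotypes interleaved. Its log2 fold change was 0.02 (95% interval −0.19 to 0.23, DESeq2 adjusted p = 0.963). The ratio of Camkk2 to Camkk1 per kb was 0.630 and 0.642 in WT and 0.722 and 0.961 in cKO, below 1 in every library. The summed level of both kinase kinases was 3.93 and 4.22 CPM per kb in WT and 4.56 and 4.76 in cKO. Whether the changes of Camkk2 and Camkk1 differ from each other was not tested.

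**Figure D2:**
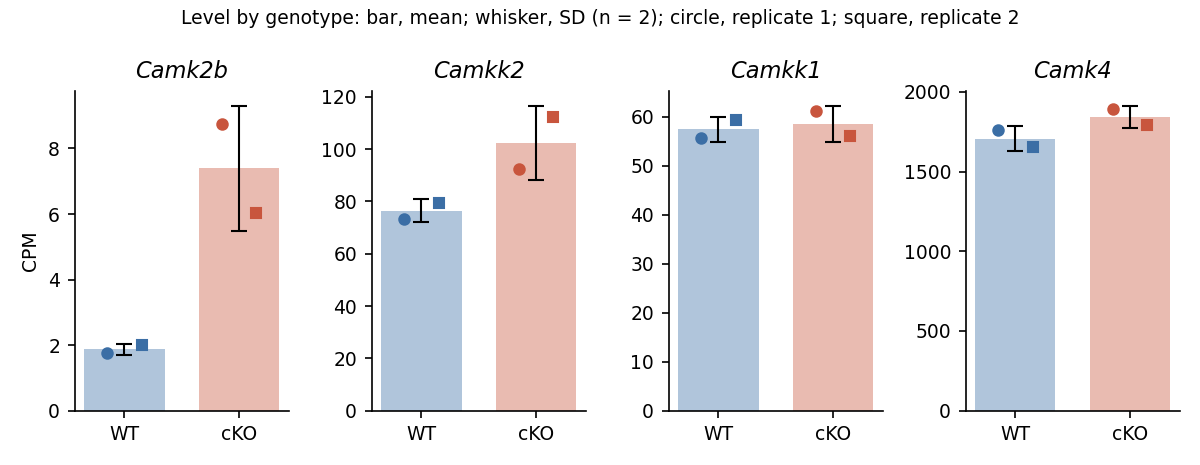
CPM of Camk2b, Camkk2, Camkk1 and Camk4 by genotype, each on its own linear axis from 0; bars are means, whiskers are SD over 2 libraries, circles are replicate 1 and squares are replicate 2. The cKO libraries lay above the WT libraries for Camk2b (6.04 and 8.74 against 1.76 and 1.99 CPM), Camkk2 and Camk4, and overlapped them for Camkk1.

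The targets of the kinase kinases lay at opposite ends of the range. Camk4, on chr18:32939041-33195767, a span of 256727 bp with 11 exons, was at 1763 and 1652 CPM in WT and 1893 and 1793 CPM in cKO. The cKO libraries were again the higher ones, by a log2 fold change of 0.11 (95% interval −0.03 to 0.24) that did not pass the test (DESeq2 adjusted p = 0.532). Camk1, on chr6:113334124-113343922, had 1 and 0 fragments in WT and 0 and 4 in cKO. A count of 0, taken to allow up to 3 fragments, allows up to 0.0616 CPM in WT replicate 2 and up to 0.0781 CPM in cKO replicate 1, so any transcription of Camk1 was near the limit of these libraries and no fold change is given. Its annotated end overlaps Ogg1 on the other strand, which had 243 to 366 fragments. Another CaMKI gene, Camk1d, was at 2114 and 1923 CPM in WT and 1996 and 1999 CPM in cKO (log2 fold change −0.02, DESeq2 adjusted p = 0.960).

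Among the 8 members, 7 were expressed by the 1 CPM mark, and Camk1 was not. Leaving out Camk2b, whose difference chose the set, the log2 fold changes of the other 6 were all above 0, beside 50.2% of all expressed genes. Those of Camk2a, Camk2g and Camkk1 were only 0.02, with 95% intervals across 0, and each changed sign in some other settings. A gene was called when it was expressed, had an adjusted p under 0.05 and changed 1.2-fold or more. Of those 6, 1 was called, Camkk2, which was increased. Over all 11625 expressed genes they called 2.14% increased, 1.57% decreased and 3.71% in either direction. DESeq2 called 0 of the 6 decreased, with 0 lower at an unadjusted p under 0.05 too, and edgeR and limma voom likewise called 0. Over all expressed genes edgeR called 0.413% increased and 0.086% decreased, limma voom 0.43% and 0.0946%, and edgeR with no filter on low counts 4.25% and 2.96%. Both cKO libraries were above both WT libraries for 3 of the 6 (Camk2g, Camk4 and Camkk2), a pattern found in 24.9% of expressed genes. The opposite pattern held for 24.0%, and either of them for 48.9%. For Camk2g that separation was of a few CPM in 170.

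**Figure D3:**
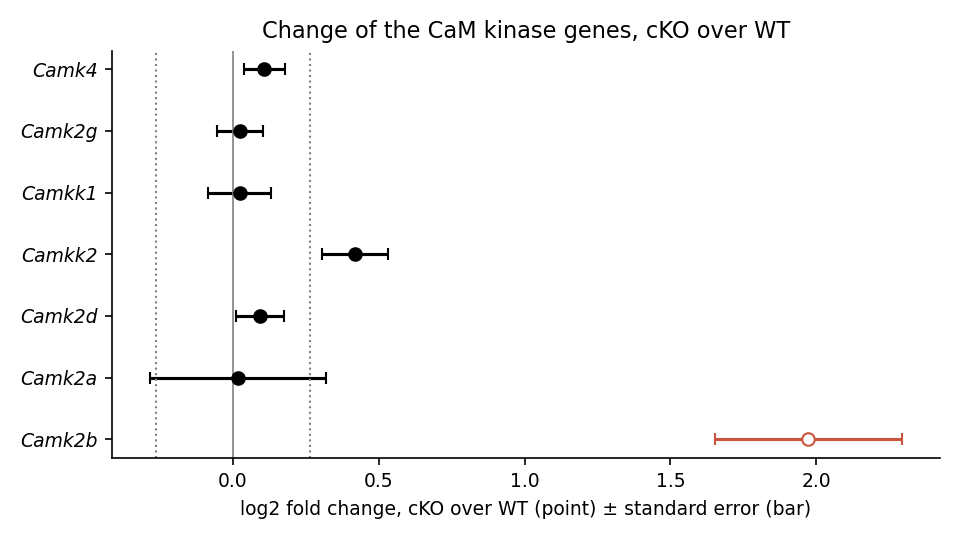
Log2 fold change, cKO over WT, of the 7 expressed members; points are DESeq2 estimates, bars are standard errors, and dotted lines mark a 1.2-fold change either way. Camk2b, drawn open because it was chosen for its change, stands at 1.97 and Camkk2 at 0.42, and the other 5 lie between 0.02 and 0.11.

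The genes around Camk2b did not share its difference at a comparable size. Nudcd3 lies 39.9 kb before the start of Camk2b on the same strand and was at 254 CPM in both WT libraries and 244 CPM in both cKO libraries (log2 fold change −0.06, DESeq2 adjusted p = 0.814). Ykt6, which encodes a SNARE protein, ends 1.88 kb past the end of Camk2b on the other strand. It was at 63.2 and 56.1 CPM in WT and 56.5 and 57.3 CPM in cKO (log2 fold change −0.07, DESeq2 adjusted p = 0.861). Myl7 and Aebp1 had 0 to 3 fragments in a library. Pold2, a subunit gene of DNA polymerase delta 91.4 kb past the end, was at 5.82 and 7.37 CPM in WT and 10.8 and 8.32 CPM in cKO. Its cKO libraries were higher, by a log2 fold change of 0.53 that did not pass the test (DESeq2 adjusted p = 0.279).

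**Figure D4:**
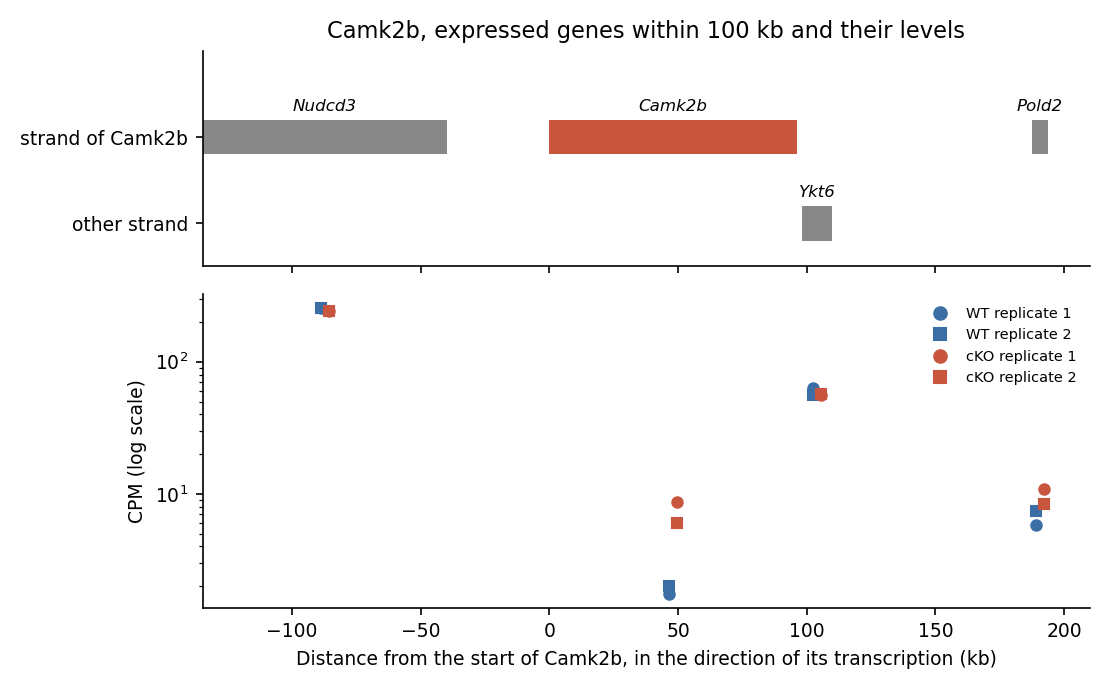
Camk2b and the expressed genes within 100 kb of it (upper panel, by strand) and their CPM in each library on a log axis (lower panel, drawn at the middle of each gene), against distance in kb from the start of Camk2b along its direction of transcription; blue is WT, red is cKO, and circles and squares are replicates 1 and 2. Nudcd3 (244 to 254 CPM) and Ykt6 (56.1 to 63.2 CPM) had similar levels in both genotypes, beside 1.76 and 1.99 CPM in WT and 8.74 and 6.04 CPM in cKO for Camk2b.

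Markers of neurons, the cells in which Camk2b is best known, were looked at beside it. Leaving out Mbp, the neuron and glia markers summed to 0.390 and 1.17 CPM at the lowest and highest in WT and to 0.598–0.604 CPM in cKO, and no single one exceeded 0.680 CPM in any library. The cKO sums lay within the WT range. Mbp, a myelin gene whose locus also makes transcripts in lymphoid cells, brought the sum to 672–720 CPM in WT and 613–676 CPM in cKO.

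The genes that work with the CaM kinases were taken in 7 lists of 72 genes, of which 55 were expressed. Among these 55, 2 were called increased and 2 decreased, 3.64% each way, beside the 2.14% and 1.57% of all genes given above, and their median log2 fold change was −0.04 against 0.00 over all genes. None of the 4 calls passed edgeR or limma voom, and all 4 passed edgeR with no filter on low counts. With 1 library left out, Hdac9 was no longer called whichever it was, Itpr1 and Dapk3 were called only without WT replicate 2, and Eef2k only without WT replicate 1.

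Upstream of the kinases, 3 of 5 calmodulin genes were expressed. DESeq2 called 0 of them, with 0 at an unadjusted p under 0.05, and the list median was −0.05. Of the 20 expressed genes for calcium release, entry and clearance, 19 of which had an adjusted p, 1 fell and DESeq2 called 0 increased, although 2 were higher at an unadjusted p under 0.05. The one that fell was Itpr1, an IP3 receptor that releases calcium from the endoplasmic reticulum. It was at 932 and 839 CPM in WT and 740 and 707 CPM in cKO, with no overlap (log2 fold change −0.29, SE 0.0753, DESeq2 adjusted p = 0.00485). Itpr2, the highest of the list, was at 2693 and 2543 CPM in WT and 2814 and 2956 CPM in cKO (log2 fold change 0.14, DESeq2 adjusted p = 0.340). The calcium channel gene Cacna1e was at 384 and 118 CPM in WT and 87.5 and 72.5 CPM in cKO, with no overlap, and had the lowest log2 fold change among the expressed genes of the lists, −1.65 (DESeq2 adjusted p = 0.284). Without WT replicate 1, which was far above the rest, the log2 fold change was −0.57 and the gene was called decreased (DESeq2 adjusted p = 0.00553), as it was without WT replicate 2 and with edgeR with no filter on low counts. Atp2b4, which encodes a calcium pump of the plasma membrane, was at 14.1 and 10.1 CPM in WT and 19.3 and 17.2 CPM in cKO. Its log2 fold change was 0.59 (DESeq2 adjusted p = 0.0600), and it was called increased without WT replicate 1, at 0.84 (DESeq2 adjusted p = 0.0455), and with edgeR with no filter.

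Among the other calmodulin-regulated or related kinases, 8 of 16 were expressed, and 1 rose and 1 fell. Eef2k encodes the calmodulin-dependent kinase of elongation factor 2, which slows translation. It was at 46.8 and 41.5 CPM in WT and 59.8 and 58.0 CPM in cKO (log2 fold change 0.41, SE 0.112, DESeq2 adjusted p = 0.00909). Dapk3, a death-associated protein kinase, was at 55.1 and 48.4 CPM in WT and 40.4 and 35.0 CPM in cKO (log2 fold change −0.46, SE 0.124, DESeq2 adjusted p = 0.00962). In both genes the genotypes did not overlap. Of the genes that restrain CaM kinases, Ppm1f and Ppm1e, which encode phosphatases of CaMKII, were expressed, and DESeq2 called 0 of these 2, with 0 at an unadjusted p under 0.05. Ppm1f was at 52.6 and 50.6 CPM in WT and 51.9 and 44.9 CPM in cKO.

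Downstream, DESeq2 called 0 of the 8 CREB, CRTC and coactivator genes, with 1 higher at an unadjusted p under 0.05, and their median was 0.01. Crebbp, which encodes the CREB-binding coactivator, was at 845 and 809 CPM in WT and 807 and 820 CPM in cKO. In the MEF2 and class IIa HDAC list, whose HDACs leave the nucleus when CaM kinases phosphorylate them, 7 genes were expressed, 6 had an adjusted p and 1 rose. This was Hdac9, at 8.30 and 9.57 CPM in WT and 14.3 and 15.1 CPM in cKO (log2 fold change 0.72, SE 0.19, DESeq2 adjusted p = 0.00947). Mef2d, the highest of the list, was at 1501 and 1462 CPM in WT and 1292 and 1269 CPM in cKO. Its log2 fold change of −0.21 had an adjusted p of 0.0326 by DESeq2 but stayed under the 1.2-fold criterion. For AMPK, which CaMKK2 can activate, DESeq2 called 0 of the 6 genes that had an adjusted p, and the median of all 7 was −0.11. The other gene, Prkaa2, which encodes a catalytic subunit, was at 0.469 and 0.719 CPM in WT and 2.16 and 1.11 CPM in cKO. Its unadjusted p was under 0.05 by DESeq2, and edgeR with no filter on low counts called it increased. Stk11, encoding the other main AMPK kinase LKB1, was at 103 and 104 CPM in WT and 102 and 90.5 CPM in cKO (log2 fold change −0.11, DESeq2 adjusted p = 0.719).

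**Figure D5:**
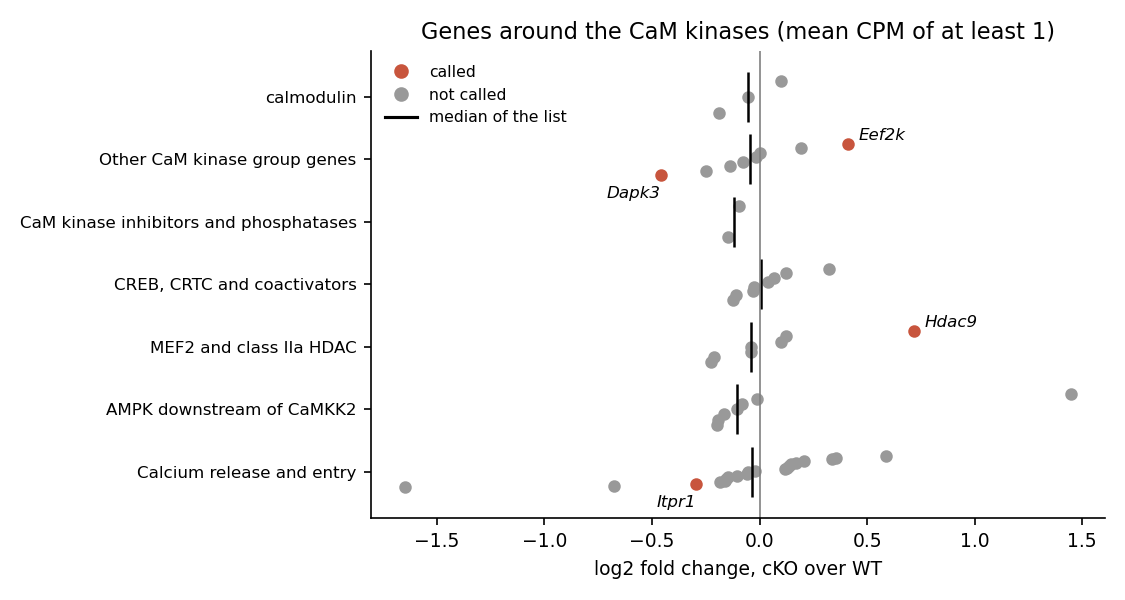
Log2 fold change, cKO over WT, of the 55 genes around the CaM kinases that were expressed, by list; red points met the criteria for a call, grey points did not, and vertical lines are list medians, which ran from −0.12 to 0.01. The 4 called genes, Eef2k, Hdac9, Dapk3 and Itpr1, lay in 3 of the 7 lists, and the grey points at the far left and far right are Cacna1e and Prkaa2.

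The genes closest to Camk2b in pattern were found by the Euclidean distance between log2(CPM + 0.5) values centred on the mean of the 4 libraries, over 11624 other genes. They were Tspoap1 (distance 0.371), Dglucy (0.490), Casc1 (0.533), Npm2 (0.549) and Gm12610 (0.574), against a median distance of 1.76. Tspoap1 was at 18.3 and 17.0 CPM in WT and 53.0 and 45.1 CPM in cKO, and Dglucy was at 3.54 and 2.53 CPM in WT and 11.4 and 10.7 CPM in cKO. Camkk2 was at a distance of 1.41, nearer than most genes (percentile 7.60). With 4 libraries in 2 genotypes, closeness in this measure means little more than a similar step between the genotypes.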

How the data were processed

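Libraries were grouped by their titles. Per the study's methods and the submitters' processing notes, the authors filtered reads with fastp 0.13.1, aligned them with STAR 2.7.9a to mm10 (GRCm38) and counted genes; featureCounts 1.6.1 is named as well. The deposited expected counts of fragments per gene were 8.61% fractional, and the deposited gene length in bp equalled the span of the transcripts, introns included, for all 24984 genes, which differs from the counting step stated in the methods. Library construction was strand-specific, and strand use in counting was not stated. The authors added spike-in RNA and did not scale by it.

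Expected counts were rounded, and CPM were computed from the table's totals. Following the study, DESeq2 1.42.0 (Wald test, default size factors, unshrunken fold changes, independent filtering at 0.1, Benjamini-Hochberg over all genes) was fitted to the whole table, and genes averaging 1 CPM or more with an adjusted p under 0.05 and a change of 1.2-fold or more were called. Alternatives were edgeR 4.0.16, limma 3.58.1 (voom), other scalings and filters, a replicate block and leaving out each library. The code was tested on simulated data. R 4.3.3 and Python 3.11.15 were used. Same-numbered libraries did not deviate together (r = -0.03 over 11625 genes), so the numbers were not taken as pairs. The labels do not say which mice the libraries came from, so p-values measure only the spread between libraries, and fragments carried no molecular identifiers. The members and lists were chosen with earlier results of these data known. Named were Tox4, the members, called genes and the highest gene of each list, genes within 100 kb of Camk2b or overlapping another member, and the 5 genes closest to Camk2b in pattern; Cacna1e, Atp2b4, Prkaa2, Ppm1e and marker genes are named beside their counts, after their values were seen. Some genes that this rule covers are not reported here.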

Additional observations from a re-analysis of the deposited data

How the results depend on the processing

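Over all genes, 249 were called increased and 182 decreased. The counts were 48 and 10 with edgeR, 50 and 11 with limma voom, and 106 and 44 with a fold change of at least 1.5. With the replicate number as a block they were 121 and 72 with DESeq2 and 19 and 9 with edgeR. Leaving out 1 library gave 61 to 320 increased and 28 to 126 decreased genes. edgeR with no filter on low counts, chosen after seeing the data, gave 494 and 344.

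Of the CaM kinase genes other than Camk2b, 1 was called increased, Camkk2. edgeR, limma voom, a minimum of 1.5-fold and both replicate block fits called 0. Leaving out 1 library gave 0 to 1, with 0 without WT replicate 1 or cKO replicate 2. The log2 fold change of Camkk2 was 0.26 to 0.56 with 1 library left out and 0.39 to 0.42 elsewhere. That of Camk2b was 1.69 to 2.21 and 1.93 to 1.98.

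Of the pathway genes, 2 were called increased and 2 decreased. edgeR, limma voom and both replicate block fits called 0 and 0, a minimum of 1.5-fold gave 1 and 0, and edgeR with no filter gave 4 and 3. Leaving out 1 library gave 0 to 2 increased and 0 to 3 decreased.

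Signs of small changes turned. Removing a length trend gave −0.016 for Camk2a and −0.011 for Camk2g. With 1 library left out, Camk2a ran from −0.32 (without WT replicate 2) to 0.46, with −0.27 without cKO replicate 1. Camkk1 ran from −0.033 (without cKO replicate 1) to 0.082, with −0.029 without WT replicate 1. Camk1d ran from −0.078 to 0.043 (without WT replicate 1) and Ppm1f from −0.20 to 0.0017 (without cKO replicate 2). The cause of these changes was not tested. Leaving out a library leaves 1 in its group, which is then assumed to vary like the other group. Depth limits Camk1, with 0 to 4 fragments.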
